A study of Mus musculus with 2 samples.

Results

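Transport ATPases of 3 families were described in mouse stomach: the vacuolar proton pump (V-ATPase), the sodium pump (Na,K-ATPase) with its nongastric relative Atp12a, and the calcium pumps of the plasma membrane, the endoplasmic reticulum and the secretory pathway. Members were chosen by gene symbol alone: protein-coding genes named Atp6v0, Atp6v1, Atp6ap, Atp1a, Atp1b, Atp2b or Atp2c with their suffix, and Atp2a2, Atp2a3 and Atp12a. The rule gave 43 genes, out of 43346 mouse genes and 21474 protein-coding genes in both gene tables. It leaves out Tcirg1, the gene of a further V-ATPase a subunit, and the gastric proton pump (Atp4a and Atp4b).

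RNA came from stomachs of C57BL/6J mice, 8 weeks old, with littermates of both sexes pooled and no treatment or genetic change named. Polyadenylated RNA over 200 nucleotides was sequenced in 2 strand-specific libraries, numbered as biological replicates 1 and 2 of a single group. Both carry the same donor record, so the spread between them may not be that between independent animals. Health state is labelled unknown. The libraries held 52363597 and 62452468 expected counts (read pairs divided among genes by a model). Since no second group exists, no p-value was computed: each value is given in both libraries, and differences between the libraries are described. Stomach markers were present, with 10 of 12 listed parietal cell genes (a list that holds Gif, which mouse chief cells express), 3 of 3 chief cell genes and 5 of 5 surface mucous cell genes at a TPM (the deposited level per transcript length) of 1 or more in both libraries, against 0 of 6 kidney tubule genes, 0 of 5 lymphocyte genes and 1 of 5 pancreatic acinar genes.

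A V-ATPase hydrolyses ATP in its peripheral V1 sector and moves protons through its membrane V0 sector, and so acidifies lysosomes, endosomes and secretory vesicles. The Na,K-ATPase, a catalytic alpha subunit with a beta subunit that brings it to the membrane, exchanges sodium for potassium across the plasma membrane and powers secondary transport in epithelia. Calcium pumps return calcium to the outside (plasma membrane pumps), to the reticulum (SERCA) or to the Golgi apparatus (SPCA, which also carries manganese). In stomach, acid itself is secreted by another pump of the sodium pump's kin, the H,K-ATPase of parietal cells, whose beta subunit is related to those of the Na,K-ATPase.

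Short sequences are shown first for the members whose start sites hold an E-box, because that motif was more frequent in the member windows than in all windows. RefSeq windows on GRCm38.p6, running from 250 bases before to 50 bases after a start site, matched 28 of the 43 members with 36 windows. The E-box CACGTG, which reads the same on both strands, stood in 6 of the 36 member windows (16.7%) and in 7.15% of all 32851 windows. Its longer form TCACGTGA, the core of the element bound by the TFEB family of lysosomal gene regulators, contains the E-box and stood in 4 member windows (11.1%) against 0.974% of all. TATAAA, searched on both strands, stood in 1 member window (2.78%), that of Atp6v1e1, against 13.6% of all. The 30 bases around each E-box follow, in the direction of the gene, with the E-box in capitals:
Atp6v0e, chr17:26676387-26676416 (+): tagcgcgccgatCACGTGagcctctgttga
Atp6v0d1, chr8:105566050-105566079 (-): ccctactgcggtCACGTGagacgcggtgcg
Atp6v1a, chr16:44139373-44139402 (-): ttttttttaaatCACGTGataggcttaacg
Atp2b1, chr10:98914638-98914667 (+): cgcgggccgcgtCACGTGaccgcgcccagc
Atp6v0b, chr4:117887348-117887377 (-): gtgcgcgggggtCACGTGgggtcggcgcat
Atp6v0b, chr4:117887330-117887359 (-): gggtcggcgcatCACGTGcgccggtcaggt
Atp1b3, chr9:96363919-96363948 (-): ccgagcggggcaCACGTGctgccggttccc
In the first 4 the E-box lies inside TCACGTGA, and Atp6v0b has 2 E-boxes before its start site. The 6 genes do not share a level, since their mean TPM ran from 0.91 for Atp2b1 to 391 for Atp6v0b. These matches are descriptions of letters in few windows, and no binding was measured. The background windows were not matched to those of the members by base composition, and the part of composition was not tested.

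Summed over its 26 genes, the V-ATPase had the highest TPM of the 3 families, and most of that sum came from few subunits. The Na,K-ATPase and the calcium pumps had 8 genes each. A sum over genes does not give the number of assembled pumps. TPM, which is per transcript length and so allows genes to be set side by side, reached 1 in both libraries for 30 of the 43 members (69.8%), against 48.9% of all protein-coding genes. The members together made up 0.217% of transcripts in replicate 1 and 0.176% in replicate 2. Of the 43, 17 had a mean TPM of at least 10 and 6 of at least 100, among them Atp6v0c, Atp6v0b, Atp6v1f, Atp6ap1 and Atp2a3. The 13 not detected by this measure included Atp6v0d2, Atp6v1b1, Atp6v1e2, Atp6v1fnb, Atp6v1g3, Atp6ap1l, Atp1a4, Atp1b4, Atp12a, Atp2b1, Atp2b2 and Atp2b3.

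**Figure D1:**
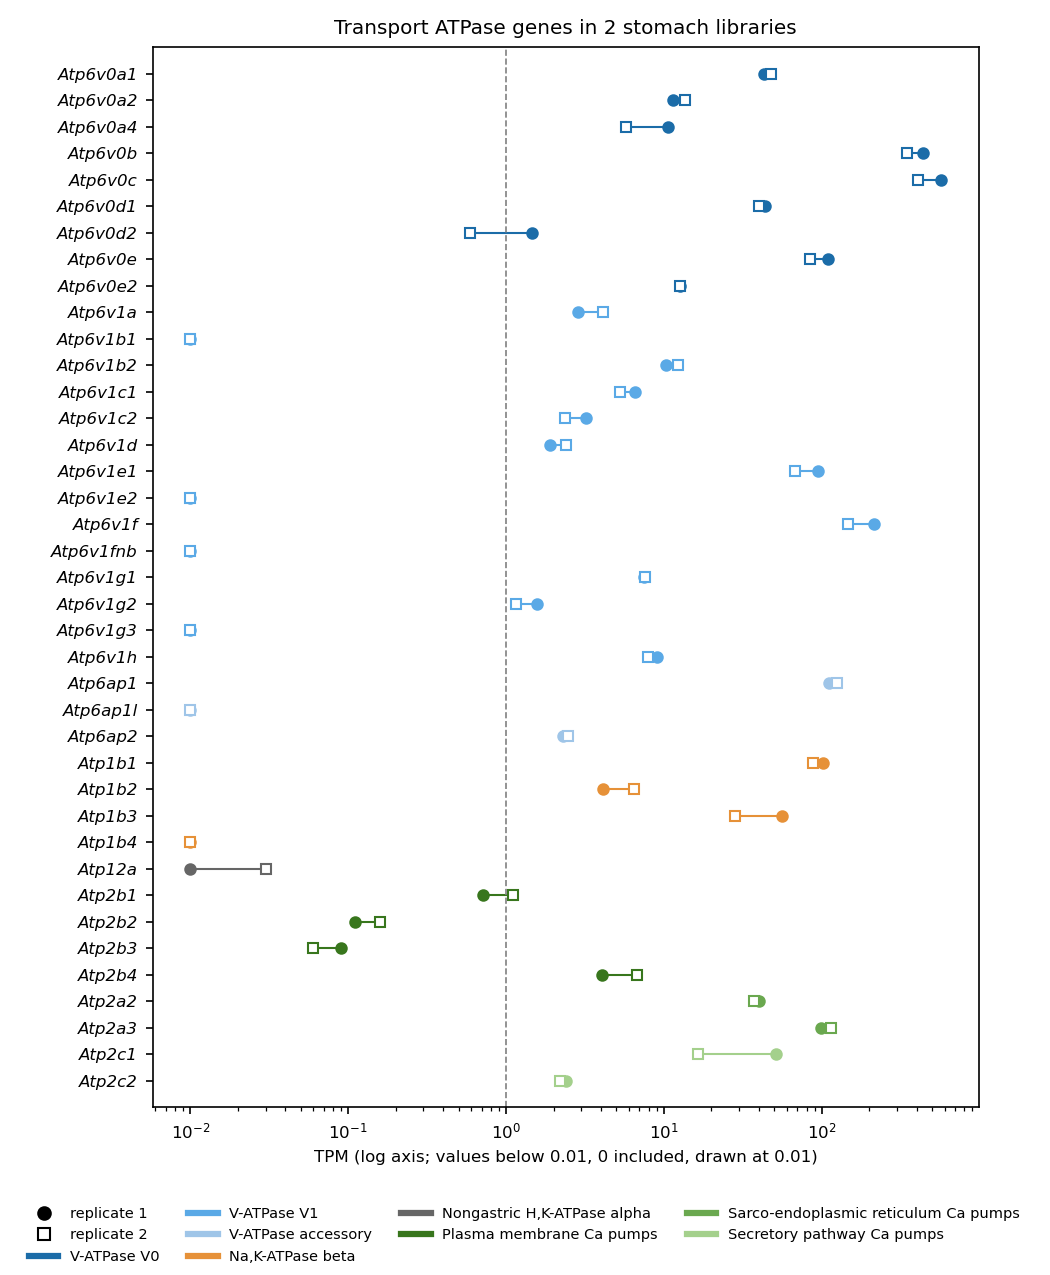
TPM of the members plotted (log axis) in replicate 1 (filled circles) and replicate 2 (open squares), coloured by role, with a dashed line at 1 TPM. Atp6v0c, at 569 and 408 TPM, is the highest member, and 5 genes without a read lie at the left edge, where all values under 0.01 are drawn.

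TPM is a share, and the shares of 2 other genes moved between the libraries. Clps (colipase) and Pgc (pepsinogen C), the most abundant genes, together held 29.6% of TPM in replicate 1 and 42.7% in replicate 2, which leaves a smaller share of TPM for all other genes in replicate 2. The V-ATPase summed to 1701 and 1344 TPM, the Na,K-ATPase to 269 and 236 TPM, and the 8 calcium pump genes to 198 and 178 TPM. Without Clps and Pgc, the V0 sum of replicate 2 was 95.6% of that of replicate 1, against 77.5% as deposited, and the V1 sum was 90.5%, against 73.3%. Differences between libraries given below are log2 ratios, replicate 2 over replicate 1, of counts scaled by TMM (a scaling that sets aside the genes of most extreme ratio). They have a prior count of 2 and a 95% interval for counting error alone. TMM did not raise replicate 2 as leaving out Clps and Pgc did, and stayed close to TPM as deposited. The median over members averaging 1 TPM or more was -0.114 by TMM and -0.111 on TPM with a pseudocount of 1. For Atp6v0c the values were -0.50 and -0.48.

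In the V0 sector, the ring subunits led. Atp6v0c, whose product is the proton-binding proteolipid c of the ring, stood at 569 and 408 TPM in replicates 1 and 2. Atp6v0b, the gene of the related ring subunit c″, stood at 435 and 346 TPM. Both were lower in replicate 2 by TPM, and their log2 ratios were -0.50 (95% interval -0.52 to -0.47) and -0.35 (-0.38 to -0.32), within the SD of 0.59 that the same ratio had over 11046 protein-coding genes. Atp6v0e, a small membrane subunit, stood at 109.6 and 84.3 TPM, and its paralog Atp6v0e2 at 12.6 and 12.6 TPM. Atp6v0d1, which joins the ring to the central stalk, stood at 43.7 and 40.1 TPM. Its paralog Atp6v0d2, which is known from osteoclasts and kidney, stood at 1.46 and 0.59 TPM, on either side of 1 TPM. Thus Atp6v0d1 held 97.7% ± 1.26 (SD, n = 2) of the transcripts of subunit d, and Atp6v0e held 88.4% ± 1.88 of those of subunit e.

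The a subunit carries the proton half-channels and directs the pump to its membrane, and it was the V0 subunit with the most even split. Atp6v0a1 stood at 42.8 and 48.0 TPM, Atp6v0a2 at 11.4 and 13.7 TPM, and Atp6v0a4, the form of kidney intercalated cells, at 10.6 and 5.71 TPM. Tcirg1, which encodes the a3 form and lies outside the rule, stood at 66.9 and 60.8 TPM. By TPM, Tcirg1 held 49.2% ± 2.39 of the subunit's transcripts, Atp6v0a1 35.0% ± 3.49, Atp6v0a2 9.64% ± 1.43 and Atp6v0a4 6.24% ± 2.52. By read counts, not per length, the order of the leading pair turned: Atp6v0a1 held 51.3% and 53.6% of the reads and Tcirg1 35.8% and 32.5%. The Atp6v0a4 value rests on a transcript of 508 bases, which took 9.63 and 4.39 TPM from 168 and 95 reads. Without it the gene stood at 0.93 and 1.32 TPM and would not count as detected. None of the 6 kidney tubule markers reached 1 TPM in both libraries.

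A processed pseudogene of nearly the same sequence as Atp6v0c was listed with reads of its own. Atp6v0c-ps2 (chr6:37806086-37806550, + strand, mm10) differs from the Atp6v0c coding sequence (gene at chr17:24163866-24169702, - strand) at 1 of 465 bases, or 99.8% identity. The substitution is T111C, counted from the first base of the coding sequence, with the gene's base first. Bases 81 to 141 of both follow from the GENCODE M21 transcripts, in coding direction, with that base in capitals:
Atp6v0c: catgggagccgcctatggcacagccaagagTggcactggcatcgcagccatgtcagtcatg
Atp6v0c-ps2: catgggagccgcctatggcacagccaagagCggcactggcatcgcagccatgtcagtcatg
The pseudogene was listed with 215 reads in replicate 1 and 2162 in replicate 2, or 14.3 and 115 TPM, with a posterior standard deviation of the count of 17.5 and 35.8 reads. Its log2 ratio was 3.03 (2.84 to 3.25). The gene and pseudogene together had 32251 and 29904 reads and a log2 ratio of -0.40, against -0.50 for the gene alone. Whether the pseudogene's reads came from the gene's own transcripts was not tested. A posterior standard deviation of over 3 reads was given for Atp6v0c and for no other member.

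In the V1 sector, levels differed widely between subunits that an assembled pump needs together. Atp6v1f, a rotor subunit, stood at 213 and 146 TPM, and Atp6v1e1, a peripheral stalk subunit, at 94.5 and 67.8 TPM. The subunits of the catalytic head were far lower: Atp6v1a, which binds and splits ATP, stood at 2.86 and 4.14 TPM, and Atp6v1b2, its partner in the head, at 10.3 and 12.3 TPM. Atp6v1h, a regulatory subunit, stood at 9.06 and 7.91 TPM. Atp6v1d, the central shaft, stood at 1.91 and 2.38 TPM. By TPM, Atp6v1f was therefore above Atp6v1d by 112-fold in replicate 1 and 61.3-fold in replicate 2, and their ranges did not overlap. The fold is smaller by reads, not per length: Atp6v1f had 4820 and 4074, and Atp6v1d 132 and 198. A 546-base transcript held 67.5% and 67.0% of Atp6v1f, and the rest of the gene stood at 69.2 and 48.2 TPM. Of the subunits that 3 genes can supply, G was led by Atp6v1g1 at 7.46 and 7.64 TPM, beside Atp6v1g2, the form known from neurons, at 1.56 and 1.16 TPM.

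Where V1 has a widespread and a tissue-restricted paralog, the widespread one led, with nearly all transcripts of subunits B and E and fewer of G and C. Atp6v1g1 held 84.8% ± 2.91 of subunit G. Atp6v1b1, the B subunit of kidney intercalated cells and other proton-secreting epithelia, had 1 read in replicate 1 and none in replicate 2, so Atp6v1b2 held at least 99.9% of subunit B in each library. Atp6v1e2, which is known from testis, had no reads, which allows a level of up to 0.0649 TPM in replicate 1 and 0.0537 TPM in replicate 2 (3 reads). The limits were 0.0309 and 0.0258 TPM for Atp6v1g3, and 0.109 and 0.0891 TPM for Atp6v1fnb, a neighbour of Atp6v1f. Atp6v1c2, an alternative C subunit of epithelia, stood at 3.20 and 2.37 TPM beside Atp6v1c1 at 6.60 and 5.29 TPM, and so held 31.8% ± 1.21 of the transcripts.

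The accessory genes also stood far apart. Atp6ap1 (Ac45), an assembly and targeting subunit, stood at 111 and 126 TPM, and Atp6ap2, the prorenin receptor, which has a structural place in the same pump, at 2.28 and 2.46 TPM. Their ranges did not overlap, and each gene's values in the libraries were close. Atp6ap1l had no reads, with limits of 0.0851 and 0.0701 TPM. Some of the low levels within the pump went with base composition: of the members averaging 1 TPM or more, the 6 whose leading transcript had under 47% GC (Atp6ap2, Atp6v0d2, Atp6v1d, Atp6v1h, Atp6v1c1 and Atp6v1a) all had a mean TPM between 1.03 and 8.49. The 8 members of 90 TPM or more, with Atp1b1 and Atp2a3 from outside the pump among them, had between 49.5% and 57.3% GC. Low V-ATPase genes lay in that range too, among them Atp6v1g2 (51.4% GC, mean 1.36 TPM) and Atp6v1c2 (51.3%, 2.785 TPM). The limits of 47% GC and 90 TPM were chosen after the values were seen. Over 31 members averaging 1 TPM or more, the rank correlation of GC with level was 0.36, and over 10954 protein-coding genes it was 0.39. The genes share their libraries, so this is a description, and the part of GC in the levels was not tested.

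**Figure D2:**
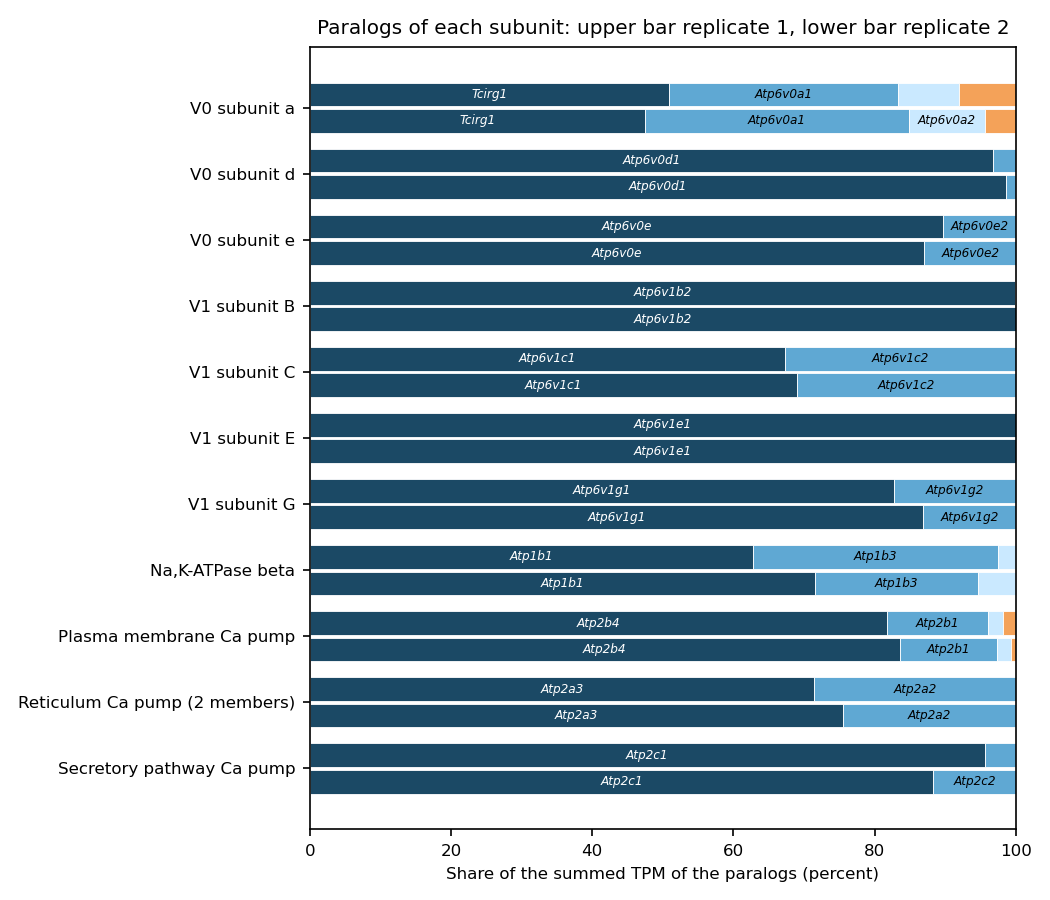
Share of each paralog in the summed TPM of its subunit or pump type (percent), with replicate 1 above replicate 2 and names printed on segments over 9%. A single gene held over 60% in all those shown but subunit a of V0, where Tcirg1 held 50.8% and 47.5%.

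Genes that build and regulate the proton pump were mostly present. Of 20 listed assembly factors, regulators and subunits outside the rule, 16 were detected in both libraries and none of the 16 averaging 1 TPM or more differed by 2-fold or more between them. The highest were Aldoa, a glycolytic enzyme that binds the pump, at 916 and 808 TPM, Rnasek, a small subunit of V0, at 141 and 116 TPM, and Tcirg1. The assembly factor Ccdc115 stood at 6.96 and 5.25 TPM, while Dmxl2 of the RAVE-like assembly complex stood at 0.65 and 0.54 TPM and Ncoa7 at 0.37 and 0.53 TPM. Of 18 lysosomal genes, 17 were detected and none differed by 2-fold. The proteases Ctsd and Ctsb stood at 434 and 337 TPM and at 187 and 185 TPM. Mcoln1, the lysosomal calcium channel, stood at 228 and 234 TPM, of which a 363-base transcript held 72.8% and 67.2%. By reads Mcoln1 was below Ctsb (5804 and 6941, against 49000 and 57832). Ostm1 stood at 7.49 and 5.14 TPM and the amino acid sensor Slc38a9 at 0.50 and 0.74 TPM.

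Of the Na,K-ATPase genes, Atp1b1, the beta subunit of most epithelia, stood at 101 and 87.5 TPM. Atp1a4, known from sperm, had 2 and 20 reads, or 0.01 and 0.09 TPM. Among beta subunits, Atp1b3 was second and differed most between the libraries. Atp1b1 held 67.1% ± 6.21 of beta transcripts and Atp1b3 28.9% ± 8.17. Atp1b3 stood at 56.1 TPM in replicate 1 and 28.3 TPM in replicate 2. Atp1b2, the beta form of glia and muscle, stood at 4.11 and 6.50 TPM, with a log2 ratio of 0.59 (0.46 to 0.73). Atp1b4, whose product sits in the nuclear envelope of muscle in placental mammals, had no reads, with limits of 0.0130 and 0.0109 TPM.

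The nongastric H,K-ATPase gene Atp12a, which is known from colon, had 1 read in replicate 1 and 7 in replicate 2, or 0.00 and 0.03 TPM. Its gastric relatives Atp4a and Atp4b stood at 2697 and 1389 TPM and at 2272 and 1320 TPM, with log2 ratios of -0.79 and -0.81, and their sum exceeded that of all 43 members in both libraries (4968 against 2168 TPM, and 2710 against 1757 TPM).

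Regulators of the sodium pump were led by the FXYD family, small membrane proteins that tune the pump's ion affinity. Of 12 listed genes, 9 were detected. Fxyd3 stood at 343 and 333 TPM, above Atp1b1, Fxyd1 at 130 and 116 TPM and Fxyd6 at 61.7 and 39.0 TPM. A 439-base transcript held 76.7% and 82.9% of Fxyd3, and by reads Fxyd3 was below Atp1b1 (6124 and 7384, against 13898 and 14283). Fxyd7, the brain form, stood at 3.65 and 7.33 TPM. Fxyd4 (0.07 and 0.01 TPM) and Nkain2 (0.08 and 0.24 TPM) were below 1 TPM. In this list 1 gene differed by 2-fold: Nkain1, named after its value was seen, stood at 2.46 and 1.22 TPM, with a log2 ratio of -1.08 (-1.52 to -0.70).

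Of the calcium pumps, the reticulum pumps stood highest. Atp2a3 (SERCA3; chr11:72961169-72993044, + strand), known from epithelia, platelets and lymphoid cells, stood at 99.5 and 114 TPM. Atp2a2 (SERCA2; chr5:122453513-122502225, - strand), the pump found in nearly all cells and in smooth and heart muscle, stood at 39.8 and 37.1 TPM. The ranges of the 2 genes did not overlap, and Atp2a3 held 73.5% ± 2.88 of their sum. The lymphocyte markers were below 1 TPM in both libraries (0 of 5 detected, 1.56 and 1.00 TPM in sum). Atp2a1 (SERCA1), the fast skeletal muscle pump, which the rule leaves out, stood at 45.6 and 59.7 TPM, but 75.6% and 72.4% of this was a 681-base transcript, and the rest was 11.2 and 16.5 TPM. By reads it was below Atp2a2 (3057 and 5169, against 9857 and 10919). Striated muscle markers were also present (5 of 8 detected, 805 and 782 TPM in sum, most of it Acta1 and Ckm), and their part in the calcium pump levels was not tested. In whole tissue, fewer cells of a type and less RNA per cell cannot be told apart.

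The transcripts of Atp2a2 differ at the 3′ end of the coding sequence, and nearly all of its level was given to the longer coding form. The coding sequences of GENCODE M21 run together for 2983 bases. They then part, at the boundary shown here in capitals, because the last bases tell the ubiquitous form (Atp2a2-201, 1044 codons) from the muscle form (Atp2a2-202, 998 codons, shown to its last coding base):
Atp2a2-201, coding bases 2954 to 3013: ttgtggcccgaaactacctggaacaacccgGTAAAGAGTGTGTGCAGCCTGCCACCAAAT
Atp2a2-202, coding bases 2954 to 2994: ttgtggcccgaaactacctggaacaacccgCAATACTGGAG
Atp2a2-201 stood at 38.6 and 35.2 TPM and held 96.0% ± 1.33 of the gene, and Atp2a2-202 stood at 1.19 and 1.84 TPM. Reads over splice junctions, pooled over both libraries, gave 24 reads for the 2998-base intron that Atp2a2-202 removes. An 85-base intron just upstream, shared by both forms, had 189 reads. The shared introns were uneven, however, with between 2 and 856 reads, and the 458-base one next upstream had 5. These junction counts therefore cannot give the share of either form.

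Plasma membrane pumps were the lowest of the calcium pump groups by TPM as deposited, at 4.97 and 8.09 TPM for all 4 genes. Without the short Atp2c1 transcript described below, the secretory pathway pumps averaged 7.96 TPM. The plasma membrane pumps averaged 6.53 TPM and so stayed lower on the mean, though their sum in replicate 2 was above 7.96 TPM. Atp2b4 stood at 4.06 and 6.76 TPM and held 82.6% ± 1.32 of the group. Atp2b1, the form present in most cells, stood at 0.71 and 1.11 TPM, while Atp2b2 and Atp2b3, forms of neurons, stood at 0.11 and 0.16 TPM and at 0.09 and 0.06 TPM. Calcium pump transcripts were thus mainly those of internal stores: the SERCA sum of 139 and 151 TPM exceeded the plasma membrane sum in both libraries, with no overlap. Among their regulators, 9 of 10 listed genes in the tables were detected. Bsg and Nptn, membrane partners of plasma membrane pumps, stood at 373 and 268 TPM and at 294 and 266 TPM. The Nptn level rests on a 429-base transcript, which held 97.1% and 97.9% of it. Mrln, a muscle inhibitor of SERCA, stood at 0.22 and 0.35 TPM. Other such inhibitors in the list were higher, with Sln at 53.7 and 48.2 TPM and Pln at 2.75 and 3.59 TPM. Of 15 calcium release and entry genes, 10 were detected. Orai1, the store-operated channel, stood at 76.5 and 45.4 TPM and Itpr3, an inositol trisphosphate receptor, at 41.3 and 47.2 TPM, while Ryr3 (0.31 and 0.77 TPM) and Slc8a3 (0.23 and 0.43 TPM) were below 1 TPM.

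The secretory pathway pump Atp2c1 (SPCA1; chr9:105403539-105527319, - strand) stood at 51.6 TPM in replicate 1 and 16.5 TPM in replicate 2, and its epithelial paralog Atp2c2 (SPCA2) at 2.40 and 2.19 TPM. Most of the Atp2c1 level belonged to 1 transcript of 824 bases, which the later GENCODE M21 does not list. Another transcript of the gene has 4872 bases. The 824-base transcript took 46.0 and 10.7 TPM, from 1645 and 466 reads. All other transcripts of the gene together stood at 5.56 and 5.77 TPM, and their log2 ratio was -0.20, against -1.23 (-1.33 to -1.13) for the whole gene. The difference between the libraries was thus held in the short transcript, whose own log2 ratio was -2.10.

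Splice junctions gave a second view of Atp2c1. They were deposited on mm9 and were tied to genes by the lengths and spacing of introns, with no coordinates converted, for 34 of the 43 members. In Atp2c1, 3 introns that begin at the same exon, among the first found from the 5′ end, held 2207 junction reads, of which 1446 spanned a 295-base intron. The other 25 introns held 433 reads in all, between 1 and 59 each, with a median of 8. In Atp2a3, by contrast, 23 of 24 annotated introns were found, with between 51 and 2586 reads and a median of 581.

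**Figure D3:**
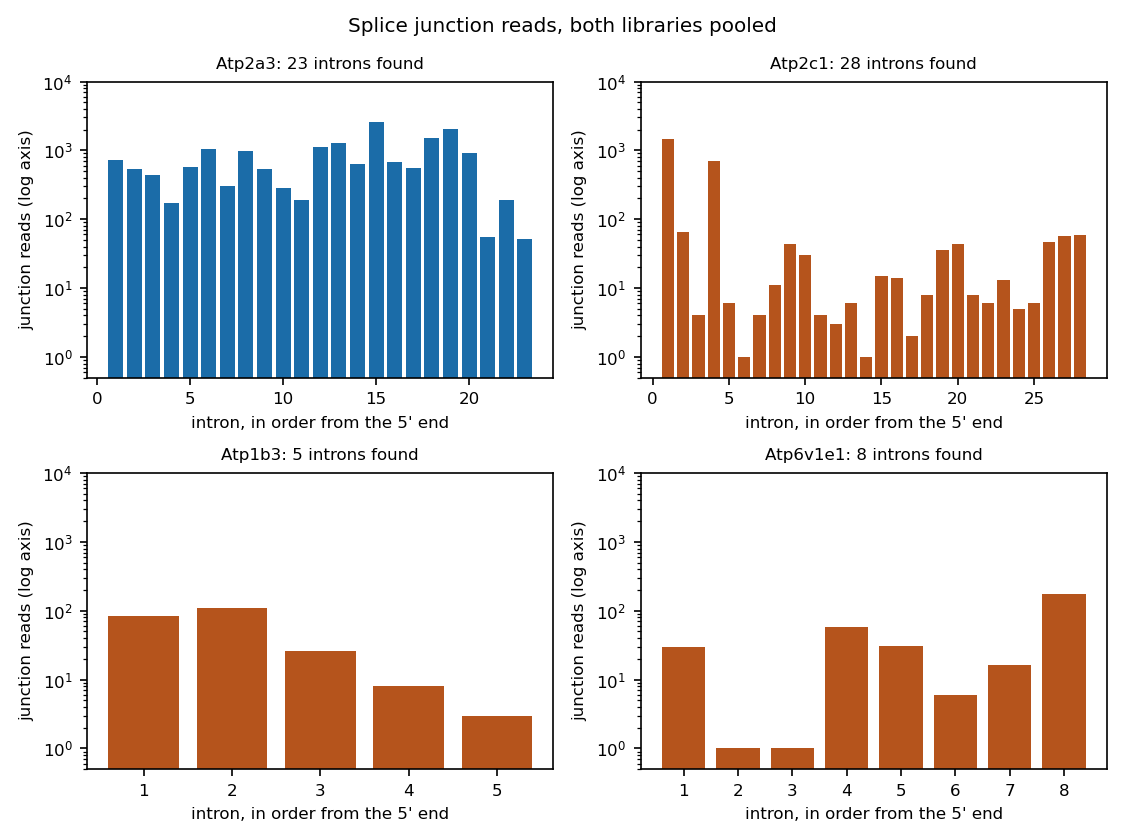
Junction reads of each intron found (log axis, both libraries pooled), ordered from the 5′ end, for Atp2a3, Atp2c1, Atp1b3 and Atp6v1e1. Atp2c1 has its tallest bars, of 1446 and 696 reads, among the first introns, while Atp1b3 and Atp6v1e1 have no intron above 176 reads.

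Among the members tied to junctions, Atp1b3 and Atp6v1e1 had the fewest spliced reads for their counts. Atp6v1e1 had 10153 expected counts in both libraries together and 318 junction reads over 8 of 11 introns, or 3.13 junction reads per 100 counts. Atp1b3 had 9308 expected counts and 231 junction reads over 5 of 7 introns, or 2.48 per 100. The median was 43.6 over the 29 members averaging 1 TPM or more and tied to junctions, and 31.0 over 10074 protein-coding genes of that kind, of which 7.93% were under 5 per 100. That limit was chosen after the values were seen. Under it were 2 of 29 members, a share near that of the protein-coding genes. Next came Atp1b2 at 7.53, Atp2a2 at 12.4 and Atp6v0a1 at 14.1, while Atp6v0b stood at 55.0 and Atp6v0e at 83.7. In Atp1b3, reads fell along the gene from 83 and 111 in the first introns found to 3 in the last. In Atp6v1e1, 2 introns near the 5′ end had 1 read each and the last one found had 176. Junctions outside the annotation and reads inside introns were not counted, and where the remaining reads of the 2 genes lay was not tested. Atp6v0c and Atp6v1f could not be tied to junctions.

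**Figure D4:**
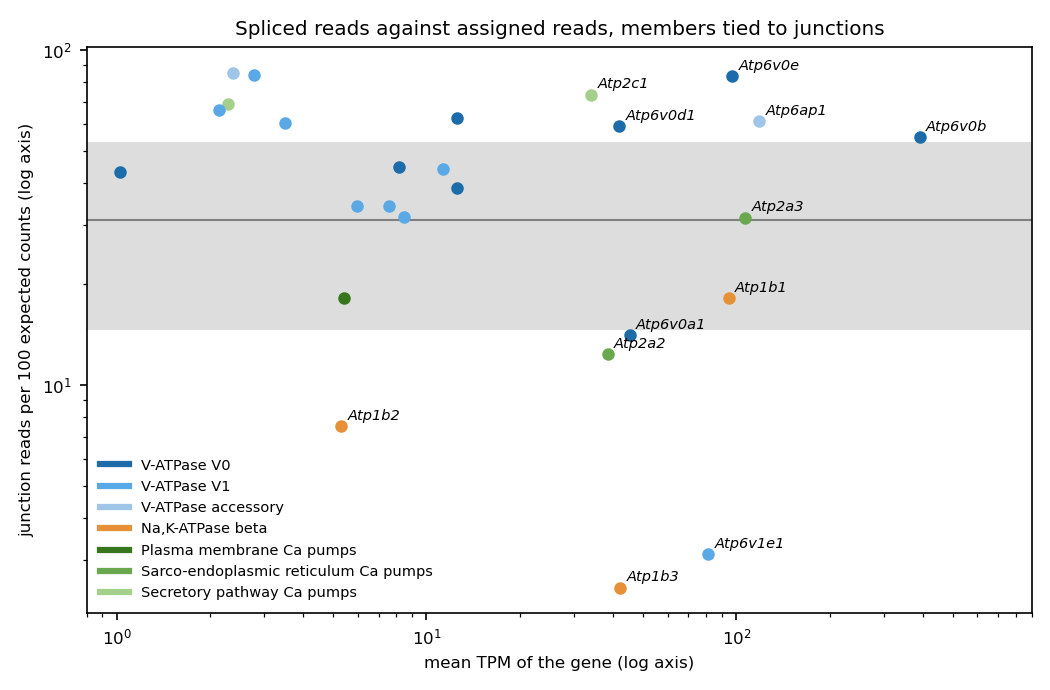
Junction reads per 100 expected counts (log axis) against mean TPM (log axis) for the members plotted, coloured by role, with names for those above 30 TPM or below the shaded band. The band holds the middle 50% of 10074 protein-coding genes, from 14.7 to 52.7, with a line at their median of 31.0, and Atp1b3 and Atp6v1e1 lie far under it.

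The libraries were then compared member by member. Of the 32 members averaging 1 TPM or more, 4 (12.5%) differed by 2-fold or more, against 7.6% of 11046 protein-coding genes at that level. All 4 were lower in replicate 2, a direction that 5.47% of protein-coding genes took, and 0 were 2-fold higher, against 2.13%. They included Atp6v0d2 (-1.32, interval -1.71 to -0.98), Atp2c1 (-1.23) and Atp1b3 (-1.02, -1.08 to -0.96). With a scaling on the spike-ins, Atp1b3 stood at -0.96, and without its short transcript Atp2c1 stood at -0.20. Of the 32 ratios, 18 were below 0 (56.3%, against 54.7% of protein-coding genes), and the median was -0.11, against -0.05. Marker lists differed between the libraries as well: 7 of 10 genes of the parietal list and 6 of 7 smooth muscle genes were lower in replicate 2. All 4 red cell genes were 2-fold lower (613 and 209.7 TPM in sum), and 0 of 3 chief cell genes were lower. Also lower were 5 of 5 enteroendocrine, 4 of 5 macrophage and 4 of 7 squamous genes. Fewer were lower among endothelial (1 of 5), striated muscle (1 of 5), surface mucous (2 of 5) and neuron and glia genes (2 of 6). The pancreatic acinar list had 0 of 2 lower and the osteoclast list 1 of 2. The part of these lists in the members' ratios was not tested.

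**Figure D5:**
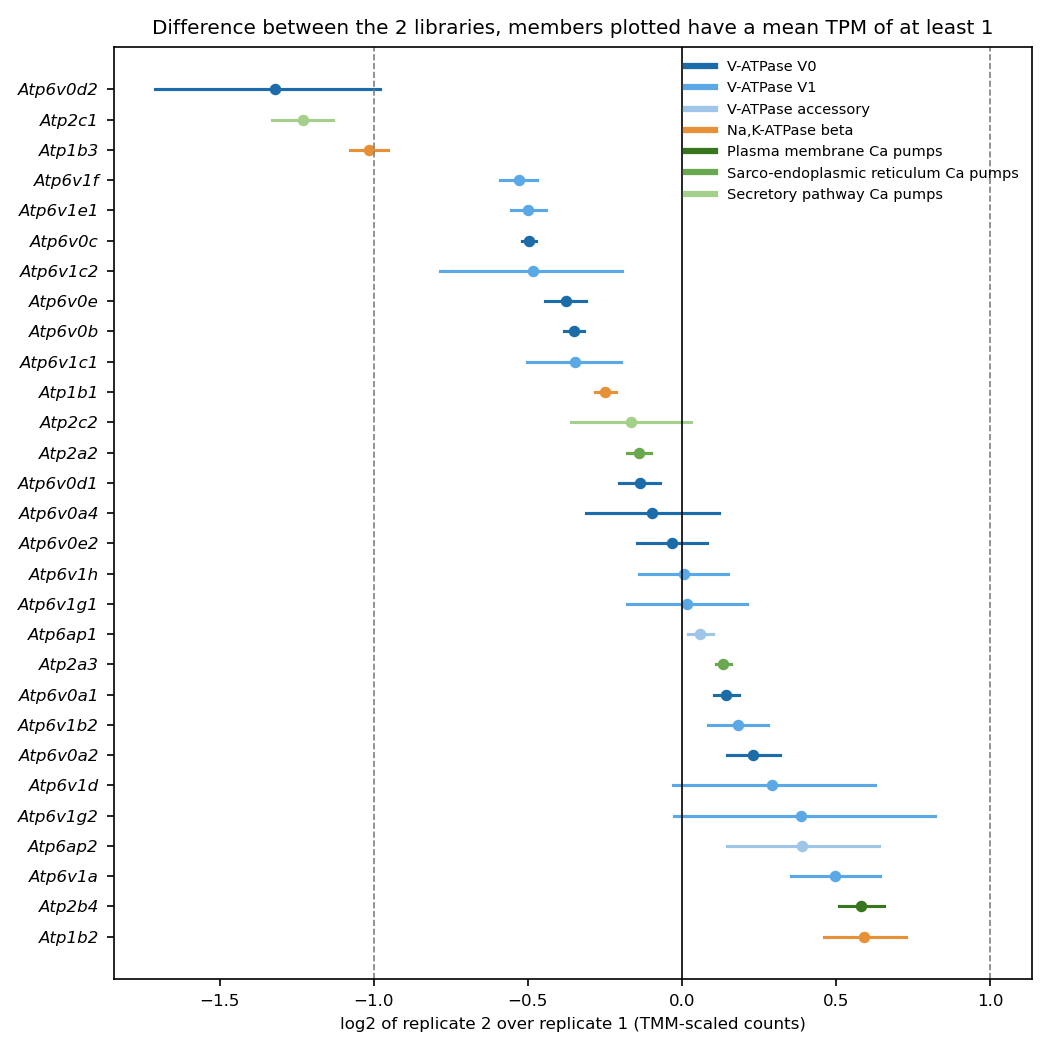
Log2 of replicate 2 over replicate 1 (TMM-scaled counts) for members averaging 1 TPM or more, with 95% intervals for counting error alone and dashed lines at 2-fold. Of the members plotted, Atp6v0d2, Atp2c1 and Atp1b3 lie past 2-fold, all to the left, and Atp1b2 at 0.59 is the highest.

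By role, the medians lay on both sides of 0. The 9 V0 genes had a median log2 ratio of -0.14, with 7 lower in replicate 2, and the median was between -0.16 and -0.04 over 5 scalings. The 10 V1 genes averaging 1 TPM or more had 0.01, with 4 lower, and between -0.01 and 0.11 over those scalings, with the sign turned by DESeq2 size factors. The V1 median was also below 0 on TPM with a pseudocount of 1 (-0.21) and for genes averaging 5 TPM or more (-0.17). Within V1 the catalytic Atp6v1a had 0.50 (0.35 to 0.64) and Atp6v1b2 0.18 (0.09 to 0.28), while Atp6v1f had -0.53 (-0.59 to -0.47) and Atp6v1e1 -0.50 (-0.56 to -0.44), so subunits of 1 sector differed in opposite directions beyond counting error. Transcript length went with the ratio: the rank correlation of the leading transcript's length with the log2 ratio was 0.47 over 32 members and 0.17 over 11046 protein-coding genes, as a description of genes that share their libraries. Its part in the ratios was not tested. Tmem165, a Golgi membrane protein listed with the calcium pump partners, stood at 115 and 37.6 TPM with a log2 ratio of -1.03. It was led by a 462-base transcript, whose share was 60.9% in replicate 1 and 31.0% in replicate 2.

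Several member levels rest on short or changing transcript models. Of the 32 members, 5 (15.6%) were led by a transcript under 1000 bases, against 21.6% of protein-coding genes: Atp6v0a4, Atp6v0b, Atp6v0e, Atp6v1f and Atp2c1. For Atp6v1f the leading 546-base transcript took 67.2% ± 0.391 of the gene, and the 703-base transcript the rest, with similar shares in the libraries. For Atp6v0b, 2 transcripts of 646 and 1000 bases took 41.7% ± 3.36 and 39.8% ± 1.10. In Atp6v1g2 the leading transcript changed, from 0 TPM in replicate 1 to 1.00 TPM in replicate 2. Over the 32 members the leading transcript held a median of 93.2% of the gene's TPM.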

How the data were processed

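Gene and transcript tables, 1 per library, were deposited with expected counts (read pairs divided by a model), their posterior standard deviation (another value in read pairs) and TPM, made from transcriptome alignments on mm10 with GENCODE M4 per the README. No aligner or quantifier is given in the sources used here. Junction counts were deposited by the authors on mm9 with both libraries pooled, beside a field that is not defined in the sources used here. Symbols and positions came from GENCODE M21 on mm10 (98.0% of 43346 IDs matched), and promoter windows from RefSeq. Rows of spike-ins, phiX174 (1.14% and 1.12%, and 0.252% and 0.185%, of counts) and 26248 numeric IDs, all at 0, stayed out of library sizes.

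TPM was used as deposited by the authors. Expected counts were rounded, TMM-scaled in edgeR 4.0.16 and compared as log2 ratios with a prior count of 2 and exact conditional binomial 95% intervals, which cover counting error only. DESeq2 1.42.0 size factors, other scalings, filters and units were alternatives. A limit for genes without reads is 3 reads per library. Introns were tied to junctions where at least 2 matched in length and spacing. Both steps were tested on simulated data. The contig table was not used here.

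All members enter the counts, and results for some members and partner genes are not reported here. Of each partner list the 3 most abundant genes are named, with at most 2 that stayed under 1 TPM in each library and at most 2 of largest ratio among those averaging 5 TPM or more. Nkain1, Sln and Pln are named besides these, after their values were seen. The members, lists and tests were chosen with earlier results of these data known.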

Additional observations from a re-analysis of the deposited data

How the results depend on the processing

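Apart from leaving out 1 library, 189 alternative values were computed, and 156 stayed within the limits used. These were 1.5 times for counts and 1 SD between the libraries for levels and shares. Median ratios, and those of Atp6v0a4 and Atp6v0c, had a limit of 0.59 (the SD of the log2 ratio over protein-coding genes). The ratio of a member past 2-fold had to stay past 2-fold. The limit of 0.59 is wide for a median, and all median ratios stayed within it, so it tests little there. The secretory pathway median, for example, went from -0.70 to -1.23 at a mean TPM of at least 5. Rescaling TPM to mouse genes without the 2 most abundant genes raised the summed levels to 1750 TPM for V0, 483 for V1, 196 for the accessory genes, 179 for Na,K-ATPase alpha, 226 for beta, 10.8 for the plasma membrane calcium pumps and 236 for the reticulum pumps, by construction of the scale. Without its short transcript, an alternative chosen after seeing the data, Atp2c1 brought the secretory pathway pumps from 36.3 to 7.96 TPM. The median share of the leading paralog was 86.6%, and 80.3% with read counts or 85.7% with posterior mean TPM. That of the leading transcript was 93.2%, and 96.1% or 86.8% with these units. The 4 members past 2-fold became 1 with a pseudocount of 1 on TPM and 2 at a mean TPM of at least 5, where fewer genes were tested. Atp1b3 crossed back under 2-fold with library size alone (-0.98), upper quartile scaling (-0.92) and spike-ins (-0.96). The log2 ratio of Atp6v0a4 went from -0.10 to 0.50 without its short transcript, also chosen after seeing the data. Leaving out 1 of 2 libraries moves a mean level or share by less than their SD by arithmetic, so it tests nothing there (the secretory pathway pumps went from 36.3 to 18.7 or 54.0 TPM). Members detected went from 30 to 31 or 32. A ratio needs both libraries. No paired analysis was possible because there is 1 group, with no second group to share its replicate numbers. Depth limits the genes under about 1 TPM, and 2 libraries limit every SD.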
